A study of Homo sapiens with 7 samples.

Results

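The genes described here are 32 members of the integrated stress response that is run by the transcription factor ATF4, chosen by name from the 19978 rows of a gene-level RNA-seq table. They cover 8 arms, namely kinases that phosphorylate the translation factor eIF2α, the regulatory subunits of its phosphatase, transcription regulators, stress effectors, serine synthesis, mitochondrial one-carbon metabolism, other amino acid metabolism and amino acid transport. The RNA came from HEK-293, an established human embryonic kidney cell line. The control group (2 samples) was kept at pH 7.4 with the vehicle DMSO. For the acidosis group (3 samples) the medium was at pH 6.6, again with DMSO. Cells of the SRPIN340 group (2 samples) stayed at pH 7.4 and received 10 µM of SRPIN340, an inhibitor of the kinases that phosphorylate SR-rich splicing factors. Exposure lasted 48 h in each group, so that no early response was sampled. DMSO was matched by volume between the groups, one treatment label spells the inhibitor SRPIN 350, and no group combined acidic medium with SRPIN340. All samples are of 1 cell line. The study set acidosis beside kinase inhibition to ask how far the 2 treatments resemble each other in RNA.

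In the integrated stress response, kinases that sense different stresses phosphorylate eIF2α, which lowers general translation but favours the translation of a few mRNAs with upstream open reading frames, that of ATF4 among them. ATF4 then binds composite C/EBP-ATF response elements (CARE) and raises genes for amino acid synthesis, uptake and stress adaptation, and the phosphatase subunit encoded by PPP1R15A restores translation. ATF4 is regulated largely by translation, and RNA levels measure neither the phosphorylation of eIF2α nor the ATF4 protein.

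The core of the CARE, TGATGNAA on either strand, was looked for in RefSeq promoter windows (GRCh38.p14) that reach from 250 bases before to 50 bases after a start site. Windows were given for 26 of the 32 members, and 6 of these held the core. They are shown because the core is the element through which ATF4 acts, and the values of these 6 genes are given with their arms. Each window is printed 5′ to 3′ on the strand of its gene, from 250 bases before to 30 bases after the start, with the CARE core in capitals and on GRCh38.p14 coordinates. For PPP1R15B (chr1:204411788-204412067, minus strand) the core began at position -227. For ASNS (chr7:97872379-97872658, minus strand) it began at -68, for SLC7A1 (chr13:29595659-29595938, minus strand) at 8, for CHAC1 (chr15:40953221-40953500, plus strand) at -209 and for CEBPG (chr19:33373863-33374142, plus strand) at -42. For SLC3A2 it began at position 38, after the start, and only the 30 bases around it are given (chr11:62881719-62881748, plus strand). SLC3A2 had 3 windows, and this one belongs to a start inside the gene, not at its 5′ end. A gene counted as holding the core if any of its windows did. In CHAC1 and SLC3A2 the capitals are the reverse complement of the core.
PPP1R15B: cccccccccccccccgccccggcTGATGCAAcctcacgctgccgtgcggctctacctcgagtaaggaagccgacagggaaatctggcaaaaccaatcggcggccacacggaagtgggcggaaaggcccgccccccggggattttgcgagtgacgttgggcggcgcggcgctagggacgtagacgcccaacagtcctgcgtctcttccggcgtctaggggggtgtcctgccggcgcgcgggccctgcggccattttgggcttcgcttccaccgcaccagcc
CEBPG: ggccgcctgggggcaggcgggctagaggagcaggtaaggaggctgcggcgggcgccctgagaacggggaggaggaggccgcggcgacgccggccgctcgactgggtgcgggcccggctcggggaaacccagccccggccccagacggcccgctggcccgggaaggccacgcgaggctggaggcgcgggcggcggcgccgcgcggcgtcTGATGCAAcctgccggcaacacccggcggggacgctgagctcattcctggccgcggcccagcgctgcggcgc
CHAC1: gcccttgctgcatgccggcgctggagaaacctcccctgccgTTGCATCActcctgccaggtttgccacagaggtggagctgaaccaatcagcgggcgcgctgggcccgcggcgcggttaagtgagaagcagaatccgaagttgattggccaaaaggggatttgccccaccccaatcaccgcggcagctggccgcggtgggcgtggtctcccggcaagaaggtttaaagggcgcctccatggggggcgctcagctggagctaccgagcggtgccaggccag
ASNS: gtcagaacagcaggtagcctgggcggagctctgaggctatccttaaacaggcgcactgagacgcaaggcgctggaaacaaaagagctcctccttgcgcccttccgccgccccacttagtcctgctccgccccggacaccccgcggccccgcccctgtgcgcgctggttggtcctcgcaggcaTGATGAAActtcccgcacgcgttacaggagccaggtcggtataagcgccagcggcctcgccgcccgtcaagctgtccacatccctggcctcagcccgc
SLC3A2: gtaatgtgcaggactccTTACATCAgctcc
SLC7A1: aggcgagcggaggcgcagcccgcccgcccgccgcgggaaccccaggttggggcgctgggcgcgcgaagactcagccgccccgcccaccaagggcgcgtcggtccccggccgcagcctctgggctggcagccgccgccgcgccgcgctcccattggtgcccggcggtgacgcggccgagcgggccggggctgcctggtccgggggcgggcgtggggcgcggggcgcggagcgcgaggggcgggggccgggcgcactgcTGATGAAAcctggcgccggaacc

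Estimated counts per gene were deposited, 13615816 to 24110460 in a library. In acidosis the 100 most abundant genes took 24.1% to 24.8% of a library, compared with 15.2% to 15.4% in the other groups. The choice of scaling therefore matters for acidosis. With TMM scaling, which is used below unless another is named, the 14863 genes tested had a median log2 fold change of -0.052 in acidosis, and with scaling by total count only one of -0.626. Levels are given as CPM, counts scaled to a common library size with the TMM factors, and are compared between samples but not between genes. Since CPM are shares of the sequenced RNA, fewer cells expressing a gene and less of its RNA per cell cannot be told apart. As a check of the label, the epithelial keratin gene KRT18 was at 99.6 to 125 CPM in the 7 samples and the vimentin gene VIM at 836 to 2745 CPM. The kidney lineage gene PAX2 was low, at 1.19 to 7.06 CPM. The leukocyte gene PTPRC and the hepatocyte gene ALB reached 0.826 and 0.516 CPM at most. A gene is said to have passed the test at an adjusted p under 0.05 (edgeR quasi-likelihood test, Benjamini-Hochberg over all genes tested), and to be called where its log2 fold change also lay beyond 1 in either direction. Adjusted p-values below are of this test unless DESeq2 is named.

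In acidosis the arms of the response did not move together. ATF4 itself rose 4.24-fold, both phosphatase subunits rose, PPP1R15A by 47.4-fold, and so did asparagine synthetase and the 3 transporter genes SLC3A2, SLC7A5 and SLC7A1. The effectors TRIB3 and VLDLR, the serine phosphatase PSPH, the mitochondrial enzymes ALDH1L2 and PCK2, and the cystine transporter SLC7A11 fell at the same time. All 32 members entered the test, and 18 passed it as higher, 8 as lower and 6 did not pass. Over all genes tested, 66.7% passed (32.5% higher and 34.2% lower). Of the members, 12 were called higher and 6 lower, that is 56.2% called, beside 33.5% of all genes (14.4% higher and 19.1% lower). The members' median log2 fold change was 0.40 and the median of its absolute value 1.30, against 0.74 for the absolute value over all genes. The 3 acidosis samples lay above both control samples for 18 members and below both for 10, while the groups overlapped for 4. The same was true of 37.0% and 39.4% of all genes. With scaling by total count only, 12 members passed as higher and 13 as lower (16.2% and 55.0% of all genes), 10 were called higher and 8 lower (5.48% and 35.0% of all genes), and the members' median became -0.18.

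**Figure D1:**
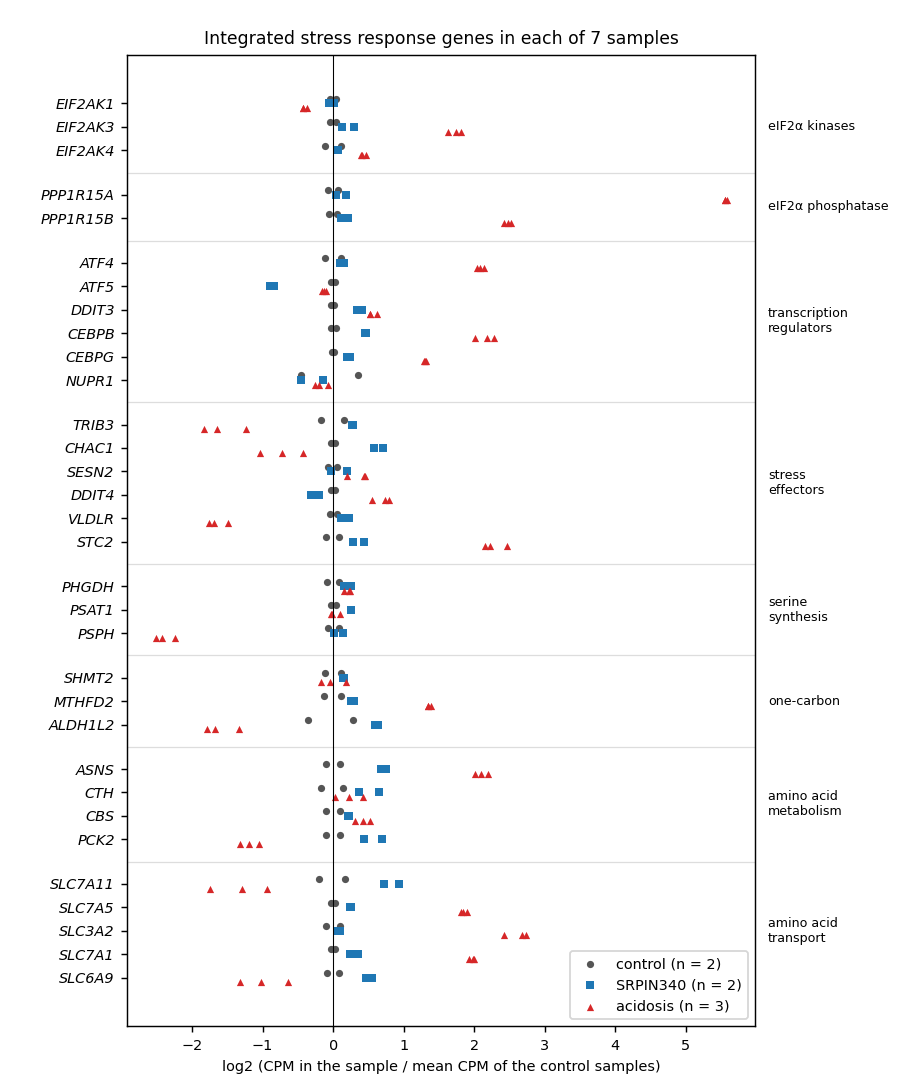
Each point is 1 sample, placed by the log2 ratio of its CPM to the mean CPM of the 2 control samples (x axis), for the 32 members grouped by arm (y axis). The acidosis samples reach from below -2 for PSPH to above 5 for PPP1R15A, and the SRPIN340 samples stay within 1 of the control mean for every member.

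Of the 3 eIF2α kinases among the members, 2 rose in acidosis, EIF2AK4 not with scaling by total count only, and 1 fell. EIF2AK3, which encodes PERK and senses unfolded protein in the endoplasmic reticulum, was at 47.4 and 45.1 CPM in the control samples, 56.7 and 50.3 CPM with SRPIN340 and 143, 163 and 155 CPM in acidosis. The acidosis samples lay above all others, and the log2 fold change against control was 1.73 (SE 0.0944, adjusted p = 2.72e-07). EIF2AK4, which encodes the amino acid sensor GCN2, stood at 92.3 and 78.6 CPM in control, 89.4 and 89.2 CPM with SRPIN340 and 114, 112 and 118 CPM in acidosis. Its log2 fold change of 0.42 (SE 0.0861, adjusted p = 0.00165) turned to -0.15 with scaling by total count only. EIF2AK1, which encodes the heme-regulated kinase HRI, had 256 and 242 CPM in control, 239.9 and 252 CPM with SRPIN340 and 185, 185 and 192 CPM in acidosis. It fell by 0.41 on the log2 scale (SE 0.0625, adjusted p = 0.000268) with acidosis below the other groups, and it overlaps AIMP2 and ANKRD61 on the opposite strand. EIF2AK2, which encodes the double-stranded RNA sensor PKR and belongs to the further genes described at the end, also passed as lower, with 317 and 279 CPM in control and 183, 219.6 and 222 CPM in acidosis, a log2 fold change of -0.52 by edgeR (adjusted p = 0.000862).

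Both regulatory subunits that direct protein phosphatase 1 to eIF2α rose. PPP1R15A (GADD34, the stress-inducible subunit, ENSG00000087074.9, chr19:48872212-48876059) measured 47.7 and 43.3 CPM in the control samples, 51.4 and 46.7 CPM with SRPIN340 and 2146, 2137 and 2176 CPM in acidosis. The log2 fold change of 5.57 (SE 0.0816, adjusted p = 2.48e-10) was the largest of the 32 members, and the spread between the acidosis samples (SD 20.6 CPM, n = 3) was small beside it. PPP1R15B (CReP, the constitutive subunit), the first of the genes with a CARE core printed above, went from 108 and 100 CPM in control, with 112 and 120.4 CPM in SRPIN340, to 558, 580 and 598 CPM in acidosis. Its log2 fold change was 2.47 (SE 0.0739, adjusted p = 9.32e-09), which is 5.56-fold, and neither call depended on the scaling.

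Among the 6 transcription regulators, 4 rose in acidosis, DDIT3 not with scaling by total count only, and 2 did not pass the test. ATF4 (ENSG00000128272.18, chr22:39519695-39522683), the factor that gives the response its name, had 329 and 387 CPM in the control samples, 383 and 398 CPM with SRPIN340 and 1511, 1471 and 1572 CPM in acidosis. Every acidosis sample was above every other sample, with a log2 fold change of 2.08 (SE 0.0794, adjusted p = 3.53e-08). CEBPB, a C/EBP factor that pairs with ATF4, stood at 5.01 and 5.27 CPM in control, 7.0 and 7.1 CPM with SRPIN340 and 23.3, 20.8 and 25.0 CPM in acidosis, a log2 fold change of 2.17 (SE 0.155, adjusted p = 1.5e-06). CEBPG, another partner of ATF4 and a holder of the CARE core, had 168 and 164 CPM in control, 190 and 195 CPM with SRPIN340 and 409, 414 and 407 CPM in acidosis. Its log2 fold change was 1.31 (SE 0.0592, adjusted p = 9.04e-08) and 0.73 with scaling by total count only, which is under the limit for a call. DDIT3 (CHOP), the factor that links lasting stress to cell death, was at 14.8 and 15.3 CPM in control, 20.1 and 19.1 CPM with SRPIN340 and 23.2, 21.7 and 21.6 CPM in acidosis. The groups were ordered without overlap, but the log2 fold change in acidosis was only 0.56 (SE 0.12, adjusted p = 0.00231) and became -0.02 with scaling by total count only. ATF5, a relative of ATF4 whose mRNA is also favoured under stress, was at 39.7 and 38.3 CPM in control and 36.5, 35.1 and 35.6 CPM in acidosis (log2 fold change -0.13, adjusted p = 0.262), and with scaling by total count only it passed as lower (-0.70, adjusted p = 9.85e-05). NUPR1, a small stress-induced nuclear protein, was near the lower end of detection, with 1.37 to 2.38 CPM over the 7 samples and overlapping groups (log2 fold change -0.17, SE 0.386, adjusted p = 0.715).

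**Figure D2:**
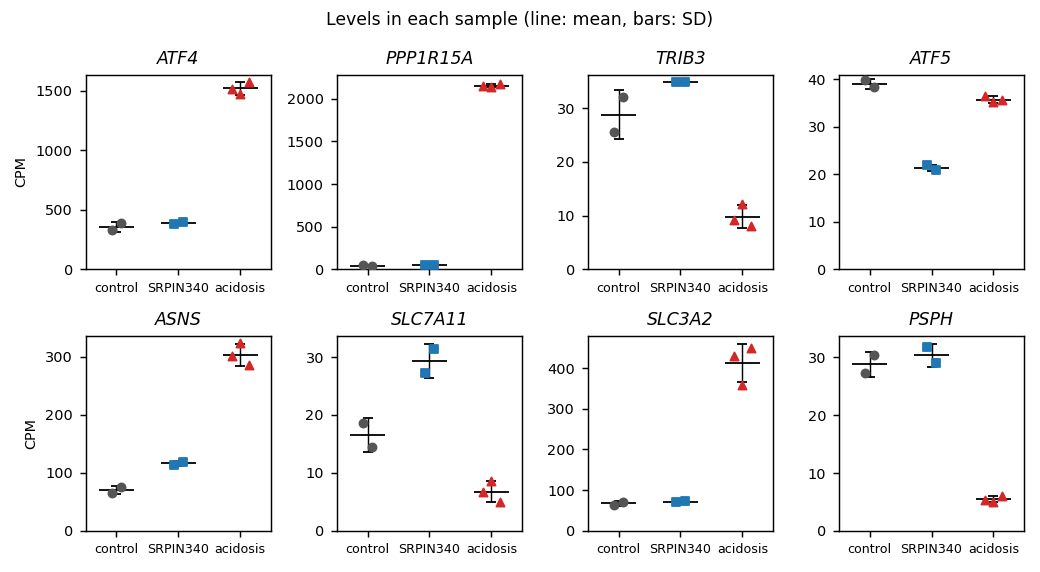
CPM (y axis, starting at 0) of 8 members in each sample, by group (x axis), with the group mean as a line and the SD as bars. ATF4, PPP1R15A, ASNS and SLC3A2 are high in the 3 acidosis samples, TRIB3, SLC7A11 and PSPH are low there, and ATF5 is low in the 2 SRPIN340 samples.

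The 6 stress effectors split evenly by sign. TRIB3 (ENSG00000101255.12, chr20:362835-397559), a pseudokinase that restrains AKT and ATF4, was at 25.6 and 32.1 CPM in the control samples, 34.8 and 34.9 CPM with SRPIN340 and 9.20, 12.2 and 8.08 CPM in acidosis. All 3 acidosis samples were below the other 4, a fall by 1.56 on the log2 scale (SE 0.174, adjusted p = 3.01e-05). VLDLR, a lipoprotein receptor, had 50.2 and 46.9 CPM in control, 52.6 and 56.8 CPM with SRPIN340 and 17.3, 15.0 and 14.3 CPM in acidosis, a log2 fold change of -1.64 (SE 0.113, adjusted p = 1.14e-06). CHAC1, an enzyme that degrades glutathione and a holder of the CARE core, had few counts, with 2.70 and 2.60 CPM in control, 4.31 and 3.95 CPM with SRPIN340 and 1.60, 1.29 and 1.98 CPM in acidosis. The groups did not overlap, but its log2 fold change of -0.70 (SE 0.299) did not pass the test (adjusted p = 0.0614), although it passed without acidosis replicate 3 (-0.86, adjusted p = 0.042) and with scaling by total count only (-1.28, adjusted p = 0.0031). In the other direction, STC2, a secreted glycoprotein, went from 36.3 and 31.9 CPM in control, with 46.0 and 41.5 CPM in SRPIN340, to 189, 159 and 151 CPM in acidosis (log2 fold change 2.29, SE 0.122, adjusted p = 2.31e-07). The 2 inhibitors of mTORC1 signaling in the list, DDIT4 and SESN2, passed as higher with smaller changes. DDIT4 was at 41.3 ± 1.03 CPM in control (SD, n = 2) and at 66.9 ± 5.78 CPM in acidosis (SD, n = 3). It rose by 0.70 on the log2 scale by edgeR (adjusted p = 0.000206), which was 0.12 and did not pass with scaling by total count only. SESN2 had a log2 fold change of 0.37 by edgeR (adjusted p = 0.0209) and -0.20 with scaling by total count only. It did not pass without control replicate 1 (adjusted p = 0.136), control replicate 2 (0.0545), acidosis replicate 1 (0.0569) or acidosis replicate 3 (0.0539).

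The 3 enzymes of serine synthesis differed from each other. PSPH (ENSG00000146733.14, chr7:56011051-56051604), which removes the phosphate in the last step, was at 27.3 and 30.4 CPM in the control samples, 31.8 and 29.0 CPM with SRPIN340 and 5.34, 5.05 and 6.10 CPM in acidosis. Acidosis samples were far below the rest, with a log2 fold change of -2.39 (SE 0.138, adjusted p = 3.66e-07) that was the lowest of the 32 members. The enzymes of the preceding steps stayed near control. PHGDH, which catalyses the first step, had 144 ± 12.4 CPM in control (SD, n = 2) and 166 ± 5.02 CPM in acidosis (SD, n = 3). Its log2 fold change of 0.21 passed by edgeR (adjusted p = 0.0383), turned to -0.37 with scaling by total count only, where it passed as lower, and was lost without control replicate 1 (0.11, adjusted p = 0.298). It was also lost without SRPIN340 replicate 1 (adjusted p = 0.065) or 2 (0.0637) and without acidosis replicate 1 (0.0808) or 2 (0.0707), as well as with no filter on low counts (0.08), with a filter at a mean of 6 CPM (0.094) and with only the control and acidosis groups in the fit (0.0798). PSAT1, the transaminase, had 98.6 ± 3.03 CPM in control (SD, n = 2) and 99.5 ± 4.65 CPM in acidosis (SD, n = 3). The log2 fold change of 0.01 (edgeR, adjusted p = 0.888) became -0.56 with scaling by total count only, which passed as lower.

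The mitochondrial one-carbon enzymes, which pass on the carbon of serine, had 1 member higher, 1 lower and 1 that did not pass. MTHFD2, the dehydrogenase and cyclohydrolase of the pathway, was at 133 and 112 CPM in the control samples, 147 and 151 CPM with SRPIN340 and 312, 311 and 323 CPM in acidosis. The log2 fold change was 1.36 (SE 0.0824, adjusted p = 4.95e-07), and 0.79 with scaling by total count only, under the limit for a call. ALDH1L2, which oxidises formyl-tetrahydrofolate, had 7.31 and 4.70 CPM in control, 9.32 and 9.11 CPM with SRPIN340 and 2.38, 1.74 and 1.89 CPM in acidosis. It fell by 1.56 on the log2 scale (SE 0.261, adjusted p = 0.000466), with all acidosis samples below the others. SHMT2, which takes the carbon from serine, had 138 CPM on average in both groups, with an SD of 15.2 CPM in control and 17.9 CPM in acidosis. Its log2 fold change was 0.00 (adjusted p = 0.999) and -0.57 with scaling by total count only, which passed as lower.

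In the other amino acid enzymes, ASNS (ENSG00000070669.17, chr7:97851677-97872542), which makes asparagine and is a classical ATF4 target with the CARE core shown above, was at 65.9 and 75.6 CPM in the control samples, 113 and 119 CPM with SRPIN340 and 302, 323 and 285 CPM in acidosis. The 3 groups were ordered without overlap, and the log2 fold change in acidosis was 2.10 (SE 0.0899, adjusted p = 6.47e-08). PCK2, the mitochondrial form of phosphoenolpyruvate carboxykinase, went the other way, with 14.3 and 16.3 CPM in control, 24.8 and 20.8 CPM with SRPIN340 and 7.36, 6.70 and 6.10 CPM in acidosis (log2 fold change -1.18, SE 0.158, adjusted p = 0.000107). PCK2 overlaps NRL on the opposite strand. The transsulfuration genes CBS and CTH, which turn homocysteine into cysteine, had small values. CBS had a log2 fold change of 0.42 (adjusted p = 0.00662) that turned to -0.15 with scaling by total count only and did not pass without control replicate 2 (adjusted p = 0.0842), and CTH one of 0.23 (adjusted p = 0.335) with overlapping groups.

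Amino acid transporters had 3 members called higher, 1 called lower and 1 that passed as lower. SLC3A2 (ENSG00000168003.19, chr11:62856004-62888880), the heavy chain shared by several transporters, was at 62.9 and 72.0 CPM in the control samples, 70.3 and 72.3 CPM with SRPIN340 and 429, 359.9 and 449 CPM in acidosis. Its log2 fold change of 2.61 (SE 0.111, adjusted p = 6.07e-08) is 6.12-fold. SLC7A5 (LAT1), a light chain that carries large neutral amino acids in complex with SLC3A2, had 36.1 and 37.6 CPM in control, 43.6 and 43.8 CPM with SRPIN340 and 137, 129 and 132 CPM in acidosis, a log2 fold change of 1.85 (SE 0.0810, adjusted p = 7.32e-08). SLC7A1, a carrier of cationic amino acids, stood at 80.5 and 77.3 CPM in control, 92.7 and 101 CPM with SRPIN340 and 311, 301 and 314 CPM in acidosis (log2 fold change 1.97, SE 0.0722, adjusted p = 2.82e-08). SLC7A11 (xCT, ENSG00000151012.13, chr4:138164097-138242349), the cystine and glutamate exchanger that also pairs with SLC3A2, was at 18.6 and 14.4 CPM in control, 27.2 and 31.4 CPM with SRPIN340 and 6.77, 8.63 and 4.90 CPM in acidosis. It was below control in acidosis and above control with SRPIN340 in every sample, and in acidosis its log2 fold change was -1.29 (SE 0.216, adjusted p = 0.000475). The light chains SLC7A5 and SLC7A11 thus moved in opposite directions in acidosis while their shared heavy chain rose. SLC6A9 (GLYT1), a glycine transporter, had 11 and 12.4 CPM in control, 16.2 and 17.1 CPM with SRPIN340 and 7.48, 4.68 and 5.76 CPM in acidosis. It fell by 0.95 on the log2 scale (SE 0.196, adjusted p = 0.00182), just short of the limit for a call, which it reached without control replicate 1 (-1.04) or acidosis replicate 1 (-1.16). It overlaps CCDC24 on the opposite strand.

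SRPIN340 at pH 7.4 left the members much closer to control. Of the 32 members, 1 passed as higher and 1 as lower, beside 0.767% and 1.53% of all genes, and 0 were called, beside 0.323%. At an unadjusted p under 0.05 there were 15 higher members and 2 lower ones (8.15% and 9.48% of all genes). DESeq2 also called 0, and with it 4 members passed as higher and 1 as lower (2.82% and 4.82% of the genes it adjusted). ASNS was the member that passed as higher by edgeR, with a log2 fold change of 0.71 (SE 0.0922, adjusted p = 0.00794) and both SRPIN340 samples above both control samples. It did not pass without control replicate 1 (adjusted p = 0.0537), SRPIN340 replicate 1 (0.0747) or SRPIN340 replicate 2 (0.101). ATF5 passed as lower, with 39.7 and 38.3 CPM in control and 21.9 and 21.0 CPM with SRPIN340, a fall by 0.86 on the log2 scale by edgeR (SE 0.105, adjusted p = 0.00601). It did not pass without SRPIN340 replicate 1 (adjusted p = 0.0865) or replicate 2 (0.101), where the remaining sample is assumed to vary as the other groups do. ATF5 overlaps NUP62 and IL4I1 on the opposite strand. Protein-coding genes also lie opposite to EIF2AK1, DDIT3, SHMT2, MTHFD2, ALDH1L2, PCK2 and SLC6A9, and the strand setting of the quantification is not given in the sources used here, so reads of such pairs may not have been told apart.

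The remaining members did not pass by edgeR, and their values mostly lay on the same side of control. With SRPIN340, 28 of the 32 fitted log2 fold changes were above 0 (50.4% of all genes), their median was 0.22 against 0.002 for all genes, and 22 members had both SRPIN340 samples above both control samples (27.3% of all genes). DDIT4 and ATF5 were the 2 members with both samples below (26.8% of all genes), DDIT4 with a log2 fold change of -0.25 (adjusted p = 0.276). The highest value of the list was that of SLC7A11, 0.83 (SE 0.219), which did not pass by edgeR (adjusted p = 0.0869) and did by DESeq2 (adjusted p = 0.0173), by edgeR with only the control and SRPIN340 groups in the fit (adjusted p = 0.03) and by edgeR without acidosis replicate 2 (adjusted p = 0.0419). CHAC1 with 0.64 (SE 0.305), ALDH1L2 with 0.62 (SE 0.256), PCK2 with 0.57 (SE 0.162), CTH and SLC6A9 with 0.51 (SE 0.213 and 0.202) did not pass either. ATF4 had a log2 fold change of 0.13 (SE 0.0806, adjusted p = 0.474) and PPP1R15A one of 0.11 (SE 0.0730, adjusted p = 0.494), both with overlapping groups.

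**Figure D3:**
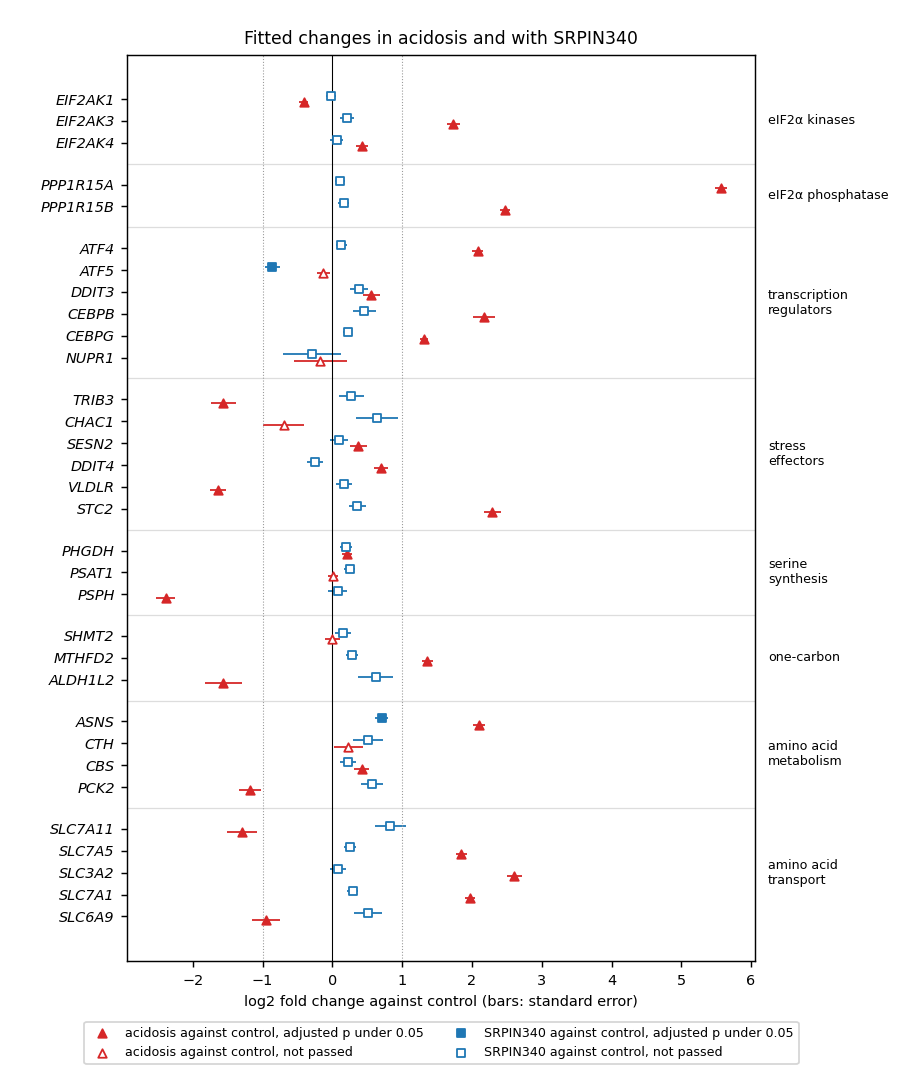
Fitted log2 fold change against control (x axis, bars are standard errors) of each member (y axis, by arm) in acidosis (triangles) and with SRPIN340 (squares), filled where the adjusted p was under 0.05. Filled triangles lie on both sides of 0, and the SRPIN340 values lie between -0.86 and 0.83 with ASNS and ATF5 filled.

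Both comparisons use the same 2 control samples, and their values for a member are therefore not independent. The direct comparison of acidosis with SRPIN340, in which the control samples enter only through the shared scaling, filter and dispersion, gave 15 members higher, 10 lower and 7 that did not pass (32.8% and 35.0% of all genes passed as higher and lower). Of these, 12 were called higher and 8 lower, beside 14.9% and 19.7% of all genes, and the same numbers were called when only these 2 groups were fitted. With scaling by total count only, 7 were called higher and 9 lower (5.21% and 37.0% of all genes). CHAC1 and SLC6A9 were called lower here, with log2 fold changes of -1.34 (SE 0.294, adjusted p = 0.00253) and -1.46 (SE 0.194, adjusted p = 9.8e-05). SLC7A11 differed by -2.12 (SE 0.213, adjusted p = 1.43e-05), ALDH1L2 by -2.18 (SE 0.257, adjusted p = 4.28e-05) and PCK2 by -1.75 (SE 0.157, adjusted p = 6.41e-06). For all 8 members called lower here, TRIB3, VLDLR and PSPH among them, this difference was larger in size than that between acidosis and control. It follows from fitted values above control with SRPIN340 and below control in acidosis. Both SRPIN340 samples lay above both control samples for each of these genes except PSPH. ATF5 was higher in acidosis than with SRPIN340 (log2 fold change 0.74, SE 0.0990, adjusted p = 0.000106), and 0.12 without a pass under scaling by total count only. DDIT3, with 0.18 (SE 0.118, adjusted p = 0.204), did not pass, and with scaling by total count only it passed as lower (-0.44, adjusted p = 0.00722). DDIT4 was just below the limit for a call (0.95, adjusted p = 2.59e-05) and beyond it without SRPIN340 replicate 1 (1.01) or acidosis replicate 2 (1.02). PSAT1 passed as lower (-0.24, adjusted p = 0.015) but not without SRPIN340 replicate 1 (adjusted p = 0.0819) or 2 (0.0662).

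The spread between samples of a group was modest for most members. The median coefficient of variation over the 32 members was 7.96% among control samples, 7.21% among acidosis samples and 3.74% with SRPIN340. It was highest for NUPR1 in control (38.1%) and with SRPIN340 (15.2%) and for SLC7A11 in acidosis (27.6%), and CEBPG had the lowest in control (1.7%) and in acidosis (0.879%). Of the acidosis samples, replicate 2 was the lowest for 17 members, replicate 3 for 11 and replicate 1 for 3. The share over all genes was not computed. Replicate 2 also had the fewest counts, and a link with depth was not tested.

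The promoter windows were set beside these calls as a description. The CARE core TGATGNAA was present in 6 of the 26 members with a window (23.1%), compared with 4.46% of all genes and 3.62% of all windows of this length. Of the 6 genes whose windows are printed above, 5 were called higher in acidosis (PPP1R15B, CEBPG, ASNS, SLC3A2 and SLC7A1), 0 were called lower, and CHAC1 was not called, the called shares of all genes being 14.4% higher and 19.1% lower. Of the 20 members with a window and no core, 7 were called higher, 3 lower and 10 were not called. With scaling by total count only, CEBPG (0.73) was not called and CHAC1 (-1.28) was called lower among the holders of the core. Without the core, MTHFD2 (0.79) was then not called and SLC6A9 (-1.53) was called lower. The called shares of all genes were then 5.48% higher and 35.0% lower. The following names are again of calls with TMM scaling. Among the 7 called higher without the core were ATF4 and PPP1R15A. The core was also in 11 of the 80 further genes with a window. Of the 10 of these that were tested, 5 were called higher (ATF3, HERPUD1, SLC1A3, BCAT1 and MTHFD1L) and 2 lower (SLC1A4, log2 fold change -1.50, and SLC1A5, -1.89), while JDP2 (-0.93) passed as lower, SLC38A1 (0.30) passed as higher and GOT1 (-0.22) did not pass. Of the 69 further genes tested without the core, 11 were called higher and 13 lower. These are calls with TMM scaling. With scaling by total count only, 10 rather than 20 of all further genes were called higher and 33 rather than 18 lower. Over all 334 tested genes with the core in a window, 16.2% were called higher and 16.2% lower, compared with 14.4% and 19.0% of the 11491 without it. The cAMP response element TGACGTCA was found in 1 member, PPP1R15A, 58 bases before the start (2.25% of all genes), and the AP-1 site TGANTCA in 4 members, SLC3A2, DDIT3, EIF2AK4 and ATF5 (9.37% of all genes). Both strands were searched, and none of the 3 motifs contains another. No windows were used for EIF2AK1, NUPR1, PSPH, SHMT2, ALDH1L2 and SLC7A11. A match of letters is not a bound site.

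Other genes around the pathway were taken from a list of 105, of which 102 were tested. In acidosis 44 passed as higher and 40 as lower, and 20 were called higher and 18 lower, shares of all genes being given above. With scaling by total count only, 10 were called higher and 33 lower, beside 5.48% and 35.0% of all genes. The eIF2 and eIF2B machinery had 3 of 20 genes called. EIF2S1, which encodes eIF2α itself, rose from a mean of 130.5 CPM in control (SD 8.09, n = 2) to 275 CPM in acidosis (SD 12.3, n = 3). Its log2 fold change of 1.08 with TMM scaling lay just beyond the limit for a call. IMPACT, an inhibitor of the activation of GCN2, fell from 68.0 (SD 3.61) to 11.5 CPM (SD 2.88). EIF2B3, a subunit of the exchange factor, fell from 39.1 (SD 0.114) to 13.3 CPM (SD 3.07). The further transcription factors and regulators in the list had 5 genes called higher and 3 lower of 15. ATF3, a stress-induced relative, had 40.2 and 33.7 CPM in control, 59.5 and 41.4 CPM with SRPIN340 and 1793, 1818 and 1849.7 CPM in acidosis (log2 fold change 5.62, SE 0.164, adjusted p = 8.67e-09). CREBRF (log2 fold change 3.08) and CEBPD (2.22) followed.

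Of 17 further amino acid transporters, 2 were called higher and 6 lower, beside 14.4% and 19.1% of all genes. The 3 with the largest changes were SLC1A1 (log2 fold change -2.43), SLC1A5 (-1.89) and SLC38A7 (-1.70), and SLC1A5, a glutamine carrier, had a mean of 185 CPM in control (SD 14.3, n = 2) and 49.8 CPM in acidosis (SD 1.08, n = 3). Of 23 amino acid and folate enzymes, 4 were called higher and 5 lower, led by PCK1, the cytosolic counterpart of PCK2 (log2 fold change 3.42, SE 0.496), SHMT1, the cytosolic counterpart of SHMT2 (-2.07), and GCLM, a subunit of the enzyme that starts glutathione synthesis (-1.39). PCK1 had few counts and control samples far apart, with 1.26 and 0.351 CPM in control and a mean of 8.66 CPM in acidosis (SD 0.704, n = 3), so that the size of its change depends on which control sample is used. Its direction was opposite to that of PCK2. Of 27 secreted and other stress targets, 8 were called higher and 2 lower. Those with the largest changes were the proapoptotic genes PMAIP1 (NOXA), with a mean of 358 CPM in control (SD 57.9) and 4875 CPM in acidosis (SD 232), and BBC3 (PUMA, log2 fold change 2.86), and HERPUD1, a factor of protein degradation at the endoplasmic reticulum, with 30.8 (SD 0.393) and 377 CPM (SD 5.87). With SRPIN340, 3 of the 102 genes passed as higher and 2 as lower (0.767% and 1.53% of all genes), and 0 were called by edgeR or by DESeq2. At an unadjusted p under 0.05 by edgeR, 22 were higher and 10 lower (8.15% and 9.48% of all genes). With DESeq2, 10 passed as higher and 3 as lower (2.82% and 4.82% of the genes it adjusted). Among those that passed by edgeR were SLC38A1 (log2 fold change 0.36), ASS1 (0.74), BCAT1 (0.57) and PPP1CA (-0.65).

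**Figure D4:**
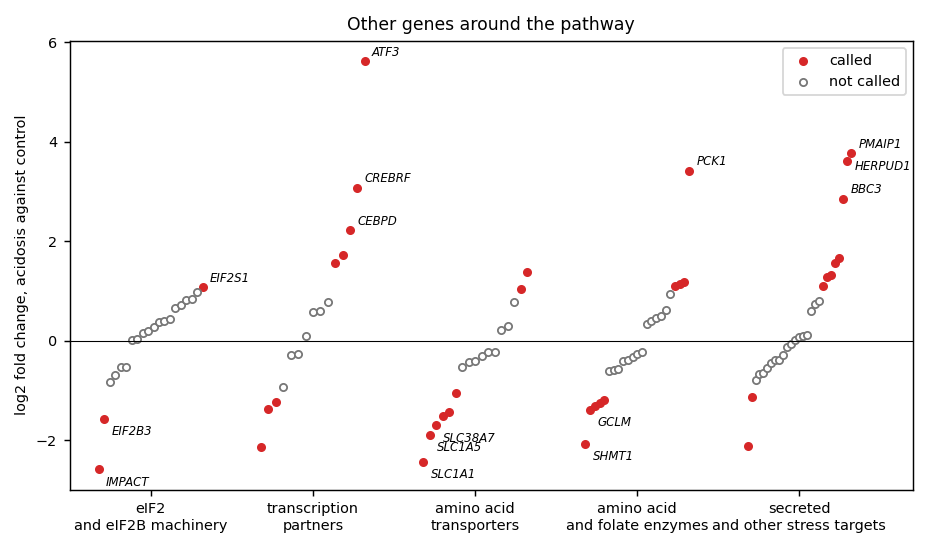
Log2 fold change in acidosis against control (y axis) of the 102 other genes around the pathway that were tested, ordered within 5 groups (x axis), filled where called, with the 3 called genes of largest change named in each group. The named transporters lie below 0, and the named stress targets lie above 2.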

How the data were processed

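RNA-seq of 7 HEK-293 samples was analysed. Per the paper, the authors trimmed the reads (Trimmomatic 0.39, Trim Galore 0.6.6 in the submitters' processing notes), quantified transcripts with Salmon 1.5.1 against a Gencode GRCh38.p13 transcriptome, aggregated them per gene by tximport, and deposited the resulting estimated counts, without normalization between samples. The tximport option and the strand setting are not given in the sources used here. After rounding to whole numbers, group differences were tested by the quasi-likelihood test of edgeR 4.0.16, run in R 4.3.3 (TMM, filterByExpr, 1 fit over 7 samples and 3 contrasts, Benjamini-Hochberg over 14863 genes). The standard error was taken from the F statistic. Symbols and positions are from GENCODE release 44 (19977 of 19978 matched), and promoter windows from RefSeq (GRCh38.p14). The alternatives were DESeq2 1.42.0, other scalings and filters, a fit of the groups compared alone, a replicate block, no fold limit and each replicate left out.

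The members and lists were chosen with earlier results of these data known. All 32 members are named, with every sample for those called in any contrast, the kinases, ATF4 and DDIT3, and from the further list the 3 called genes of largest change per group with a mean of at least 1 CPM. ATF5, EIF2AK2, the further genes with a CARE core and those that passed with SRPIN340 were named after their values were seen. One result for the further genes is not reported here. Each biological repeat was sequenced in replicates per the methods, whereas the table has 1 column per sample, and p-values measure the spread between these columns. None of the 5 pairs of samples within a group agreed within sampling noise (mean chi-square per gene of 6.97 to 12.5 between replicates). Figures were drawn with matplotlib 3.10.9.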

Additional observations from a re-analysis of the deposited data

How the results depend on the processing

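The members called in acidosis were 12 higher and 6 lower with DESeq2, with RLE size factors and with a replicate block, and 12 higher and 6 to 7 lower when each replicate was left out. Without the fold limit there were 18 higher and 8 lower in acidosis and 15 and 10 against SRPIN340. Total count scaling gave 10 higher and 8 lower in acidosis, 7 rather than 12 higher against SRPIN340, and 10 rather than 20 higher and 33 rather than 18 lower among the further genes. Over all genes this scaling called 5.48% higher and 35.0% lower in acidosis, and 5.21% higher against SRPIN340. It also turned the sign of 7 members in acidosis, to log2 fold changes of -0.15 for EIF2AK4, -0.02 for DDIT3, -0.20 for SESN2, -0.37 for PHGDH, -0.56 for PSAT1, -0.57 for SHMT2 and -0.15 for CBS. The share of higher calls was 66.7% of the members called with TMM and 55.6% with total count scaling, and 43.0% and 13.5% over all genes, and the cause of these shifts was not tested. With the adjusted p alone, 1 member was higher and 1 lower with SRPIN340 instead of 0 and 0. Against SRPIN340, leaving out each replicate gave 12 to 13 higher and 8 lower, and the further genes gave 20 to 22 higher and 16 to 20 lower in acidosis. Members of few counts, NUPR1 and CHAC1 among them, are measured least precisely. Replicate numbers gave no clear sign of pairing (correlation of the deviations 0.0051, -0.101 and 0.0604 for the 3 pairs of groups), though a weak pairing could be missed. A replicate block left SESN2 (adjusted p = 0.0745) and PHGDH (adjusted p = 0.0692) without a pass by edgeR, with 12 members called higher and 6 lower in acidosis.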
